A study of Mus musculus with 4 samples.

Results

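The miRNAs encoded within the Hox gene clusters were followed here in exosomes of adipose tissue. The 9 members were mmu-miR-196a-5p, mmu-miR-196b-5p, mmu-miR-196b-3p, mmu-miR-10a-5p, mmu-miR-10b-5p, mmu-miR-10a-3p, mmu-miR-10b-3p, mmu-miR-615-3p and mmu-miR-615-5p, out of 697 sequences with a mouse miRNA name. They were taken by name, and as a group they were chosen by their normalized values in all 4 libraries, above all the contrast of miR-196 between the white and brown fat libraries. Their values are therefore given as a description, without a test.

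Exosomes were collected from explants of visceral white adipose tissue (vWAT-Exos, labelled WAT) and brown adipose tissue (BAT-Exos), which were cultured before ultracentrifugation of the medium. The donors were wild-type C57BL/6 (B6) mice of 6 weeks, given a high-fat diet (HFD) or a low-fat diet (LFD) during 4 months. Small RNA was sequenced in 4 libraries, 1 each for HFD vWAT-Exos, LFD vWAT-Exos, HFD BAT-Exos and LFD BAT-Exos, and the sources used here do not say whether mice were pooled. A condition with 1 library has no replicate error, so each interval below is a 95% interval for counting error only.

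Hox genes encode transcription factors that give cells of the embryo their position along the body axis, and adult fat depots keep part of such a positional pattern of expression. The clusters also hold miRNA genes, whose hairpin transcripts are cut into a 5p and a 3p arm. The seed, near the 5′ end of the mature miRNA, pairs with target mRNAs. In mice, miR-196 directs cleavage of Hoxb8 mRNA and represses Hoxc8 in white fat progenitors, while miR-10 genes lie next to group 4 Hox genes and miR-615 lies inside Hoxc5.

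The mature sequences of the 4 arms that carry most of the findings were taken from RefSeq (GRCm38.p6), and they are shown 5′ to 3′ with the seed, bases 2 to 8, in capitals, because each pair shares its seed and differs at a single base.
mmu-miR-196a-5p: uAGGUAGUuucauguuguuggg
mmu-miR-196b-5p: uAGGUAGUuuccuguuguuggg
mmu-miR-10a-5p: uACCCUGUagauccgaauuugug
mmu-miR-10b-5p: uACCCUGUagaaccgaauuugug

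Counted from 1 at the 5′ end, mmu-miR-196a-5p differed from mmu-miR-196b-5p by A12C, and mmu-miR-10a-5p differed from mmu-miR-10b-5p by U12A, in each case outside the seed. In the RefSeq mouse table, the seed AGGUAGU of the miR-196 pair belonged to these 2 mature miRNAs alone, and the seed ACCCUGU to the miR-10 pair alone. The let-7 seed GAGGUAG and the miR-99 seed ACCCGUA are close to them without being the same. The deposited table listed 6 of the 9 members 1 base shorter at the 3′ end than RefSeq, with the seed kept. The exception to a kept seed was mmu-miR-10b-3p, shown here in the RefSeq form and then in the listed form, since the listed form starts 1 base earlier and its seed reads CAGAUUC in place of AGAUUCG.
RefSeq: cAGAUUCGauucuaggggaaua
listed: aCAGATTCgattctaggggaat

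The remaining mature arms have seeds of their own, which none of the others among the 9 shares, and are given for completeness of the family, again from RefSeq with the seed in capitals.
mmu-miR-196b-3p: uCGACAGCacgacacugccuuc
mmu-miR-10a-3p: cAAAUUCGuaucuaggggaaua
mmu-miR-615-3p: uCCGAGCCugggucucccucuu
mmu-miR-615-5p: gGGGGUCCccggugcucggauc

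The 9 members come from 6 miRNA genes, located on GRCm38. Mir196b (chr6:52230081-52230165, minus strand) lies between the coding parts of Hoxa10 and Hoxa9 and overlaps an exon of Hoxa9. Mir196a-1 (chr11:96265164-96265265, plus strand) lies between Hoxb13 and Hoxb9, and Mir10a (chr11:96317165-96317274, plus strand) lies between Hoxb5 and Hoxb4, both outside any Hox gene. Mir196a-2 (chr15:102973350-102973434, plus strand) lies between Hoxc10 and Hoxc9, within the annotated span of Hoxc5 but in none of its exons. Mir615 (chr15:103014910-103015001, plus strand) lies in an intron of Hoxc5. Mir10b (chr2:74726070-74726137, plus strand) lies between Hoxd8 and Hoxd4, within the spans of Hoxd3 and Hoxd4 and in none of their exons.

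**Figure D1:**
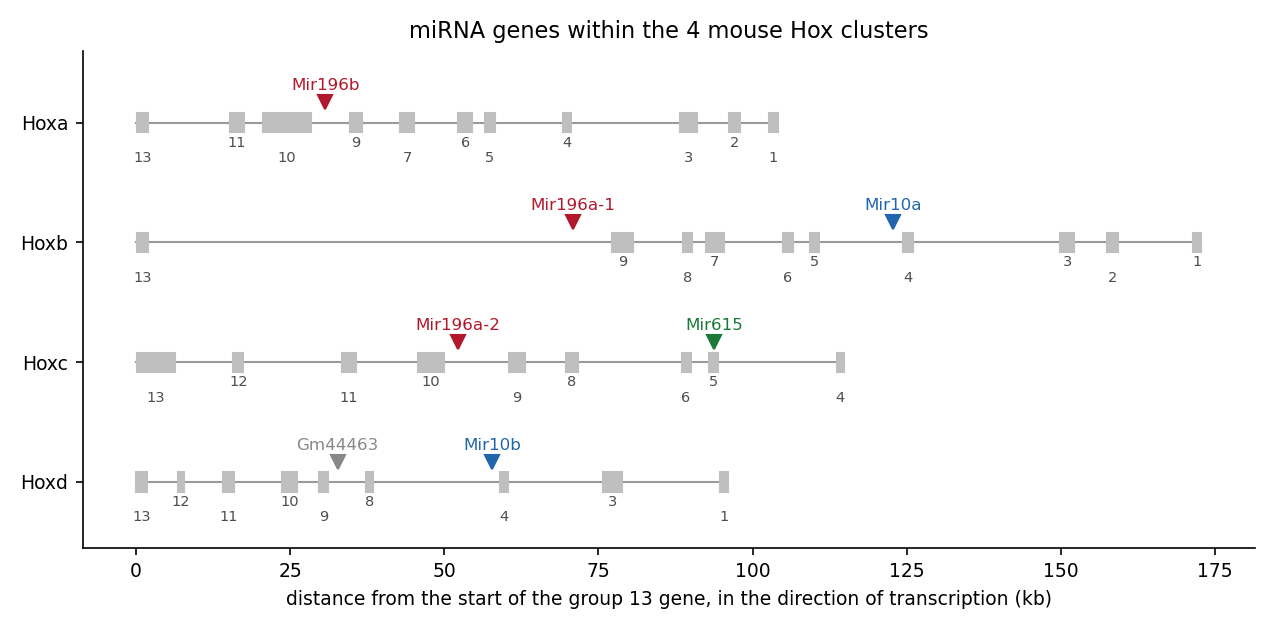
Position of the miRNA genes (triangles) in the 4 mouse Hox clusters, in kb from the start of the group 13 gene, with the coding spans of the Hox genes as grey boxes numbered by group. The 3 miR-196 genes (red) lie before group 9, the 2 miR-10 genes (blue) just before group 4, and Mir615 (green) within Hoxc5; Gm44463 (grey) is another annotated miRNA gene that was not analysed here.

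Since Mir196a-1 and Mir196a-2 give the same mmu-miR-196a-5p, its value cannot be divided between the Hoxb and Hoxc clusters. Their hairpins are shown with both mature arms in capitals, because the 3p arms differ between the loci, followed by that of Mir10b, whose arms were present in unequal ratio in the depots.
Mir196a-1: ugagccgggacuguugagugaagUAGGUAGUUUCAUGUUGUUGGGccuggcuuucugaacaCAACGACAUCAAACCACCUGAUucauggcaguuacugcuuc
Mir196a-2: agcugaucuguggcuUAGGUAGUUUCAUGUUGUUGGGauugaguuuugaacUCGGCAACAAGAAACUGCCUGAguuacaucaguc
Mir10b: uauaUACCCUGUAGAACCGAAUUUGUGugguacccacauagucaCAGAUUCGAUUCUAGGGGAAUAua

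The level of a miRNA is given as the norm value, the normalized count in the table of the authors. The libraries summed to 2839846 norm units for HFD vWAT-Exos and 2585590 for LFD vWAT-Exos, against 5832550 for HFD BAT-Exos and 5650701 for LFD BAT-Exos. Approximate reads, inferred from the steps of the values, numbered 1198338 and 1898620 in these vWAT-Exos libraries and 8265829 and 6846014 in these BAT-Exos libraries, and values under 5 reads made up 1.14% to 1.86% of those above 0 in a library. mmu-miR-378a-3p, which is made from an intron of Ppargc1b and is abundant in brown fat, alone held 113025 (HFD) and 71290 (LFD) norm units of the vWAT-Exos libraries, against 2080467 and 2108530 of the BAT-Exos libraries. Of the 5 brown fat miRNAs examined, 5 had both BAT-Exos libraries above both vWAT-Exos libraries. The same order held for 43.8% of the 320 mouse sequences compared in this way, and the reverse for 35.9%. Because these totals differ between depots, each depot comparison below is also given as a ratio within a library where one exists.

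mmu-miR-10a-5p and mmu-miR-10b-5p were among the most abundant miRNAs in each of the 4 libraries, and the other members were at most a few percent of them. Together the 9 members took 6.12% of the mouse norm units in HFD vWAT-Exos and 5.77% in LFD vWAT-Exos, against 5.25% in HFD BAT-Exos and 4.52% in LFD BAT-Exos. By rank among the mouse sequences, mmu-miR-10b-5p stood at 6 in either vWAT-Exos library and at 7 (HFD) and 9 (LFD) in BAT-Exos. mmu-miR-10a-5p stood at 12 (HFD) and 10 (LFD) in vWAT-Exos and at 6 in either BAT-Exos library. The abundant arm of both miR-10 hairpins was thus the 5p arm, the one that carries the shared seed ACCCUGU.

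**Figure D2:**
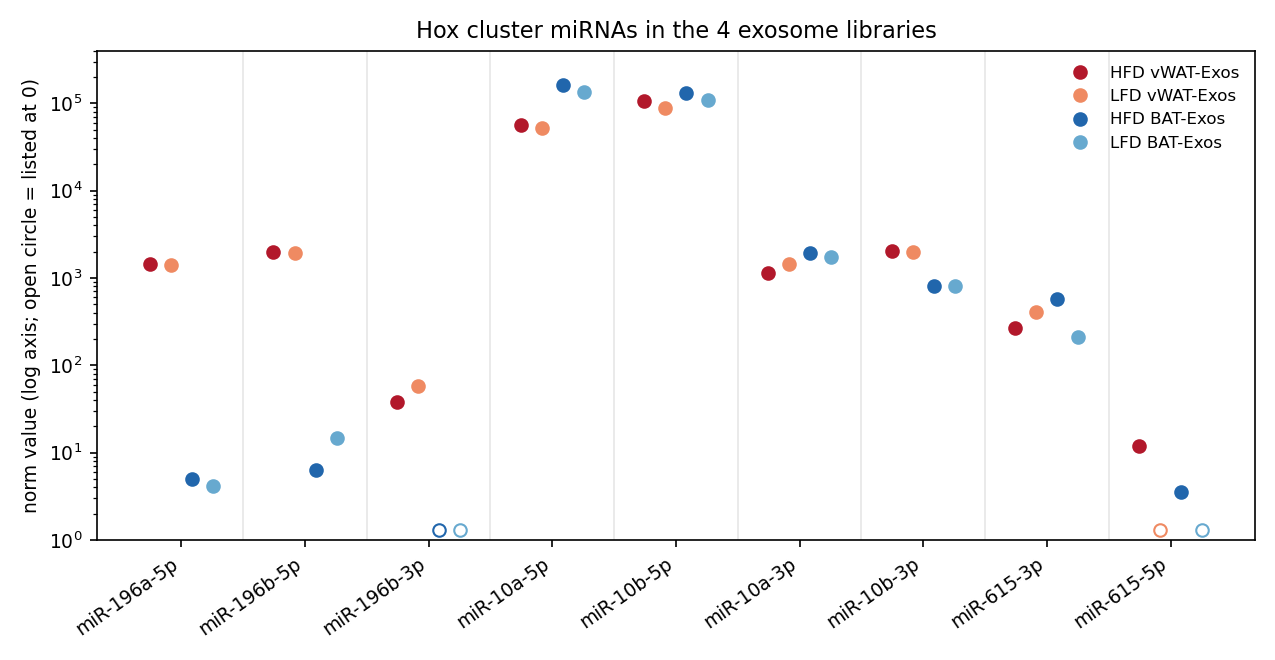
Norm values (log axis) of the 9 members in the 4 libraries, 1 point per library, with open circles for members listed at 0. mmu-miR-196a-5p and mmu-miR-196b-5p lie between 1392 and 2005 in vWAT-Exos and between 4.13 and 14.9 in BAT-Exos, while the mmu-miR-10a-5p and mmu-miR-10b-5p points lie above 52374 in each library.

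miR-196 marked the vWAT-Exos libraries, and its 5p arms rested on few reads in BAT-Exos. mmu-miR-196a-5p had norm values of 1436 in HFD vWAT-Exos and 1392 in LFD vWAT-Exos, against 4.94 in HFD BAT-Exos and 4.13 in LFD BAT-Exos. These correspond to about 606 and 1022 reads in the vWAT-Exos libraries and to 7 and 5 reads in the BAT-Exos libraries. mmu-miR-196a-5p was thus 291-fold higher in vWAT-Exos than in BAT-Exos on HFD (140 to 726) and 337-fold higher on LFD (144 to 1041), and the depots did not overlap.

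mmu-miR-196b-5p, made from the Hoxa cluster, showed the same order. Its norm values were 2005 in HFD vWAT-Exos and 1947 in LFD vWAT-Exos, against 6.35 in HFD BAT-Exos and 14.9 in LFD BAT-Exos, where they rest on about 9 and 18 reads. It was 316-fold higher in vWAT-Exos on HFD (166 to 693) and 131-fold higher on LFD (82.6 to 222). On LFD mmu-miR-196a-5p ranked 1 and mmu-miR-196b-5p ranked 3 from the highest among the 303 sequences compared, and on HFD they ranked 3 and 2 among 307. These ranks use the values by which the group was chosen, so they describe the choice. Both arms entered the ranking through vWAT-Exos alone, as their BAT-Exos values lay under a norm value of 100. Fewer cells of a type that makes miR-196 and less miR-196 per cell cannot be told apart in exosomes of cultured explants, and neither was tested.

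The low-abundance arms of the miR-196 hairpins followed the same depot. mmu-miR-196b-3p had norm values of 37.9 in HFD vWAT-Exos and 57.2 in LFD vWAT-Exos, about 16 and 42 reads, and was listed at 0 in both BAT-Exos libraries, so that no fold is given. The 3p arm of Mir196a-2, mmu-miR-196a-2-3p, which is no member, had 37.9 in HFD vWAT-Exos and 151 in LFD vWAT-Exos and was listed at 0 in both BAT-Exos libraries. This arm has its sequence from the Hoxc locus. The 3p arm of the Hoxb locus was looked for by name and had no entry among the mouse sequences.

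The proportion of the 2 miR-196 guides was close to the same on either diet in vWAT-Exos. mmu-miR-196b-5p was 1.40 times mmu-miR-196a-5p in HFD vWAT-Exos (1.26 to 1.55) and 1.40 times in LFD vWAT-Exos (1.29 to 1.52). In BAT-Exos the same ratio was 1.29 on HFD (0.426 to 4.06) and 3.6 on LFD (1.29 to 12.4), and these few reads leave wide intervals that include the vWAT-Exos value. The 5p arm exceeded the 3p arm of mmu-miR-196b by 52.9-fold in HFD vWAT-Exos (32.4 to 92.9) and by 34.0-fold in LFD vWAT-Exos (25.1 to 47.5), with intervals that overlap.

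By a rule of at least 2-fold and a norm value of at least 100 in at least 1 of the compared libraries, 3 of the 7 members that reached this value were higher in vWAT-Exos than in BAT-Exos on HFD and 2 were lower, where the same rule called 30.6% of all 307 sequences higher and 32.2% lower. On LFD 3 of 7 were higher and 1 lower, against 23.4% and 29.4% of 303 sequences. These calls belong to the values used to choose the members, so nothing is read from the counts. The median log2 difference of the 7 members was -0.29 on HFD and 0.95 on LFD, against -0.27 and -0.19 over all sequences compared. With each library rescaled to the same total, each depot ratio, taken without a pseudocount, moved by 1.04 (HFD) or 1.13 (LFD) on the log2 scale. With the pseudocount of 1, mmu-miR-196a-5p then stood at log2 differences of 8.87 and 9.12 and mmu-miR-196b-5p at 9.06 and 8.04. The calls became 3 higher and 0 lower on HFD and 4 higher and 0 lower on LFD. The median over all sequences compared rose as well, to 0.77 on HFD and 0.94 on LFD. The share of all sequences called was not counted at this scale, so nothing is read from the change.

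**Figure D3:**
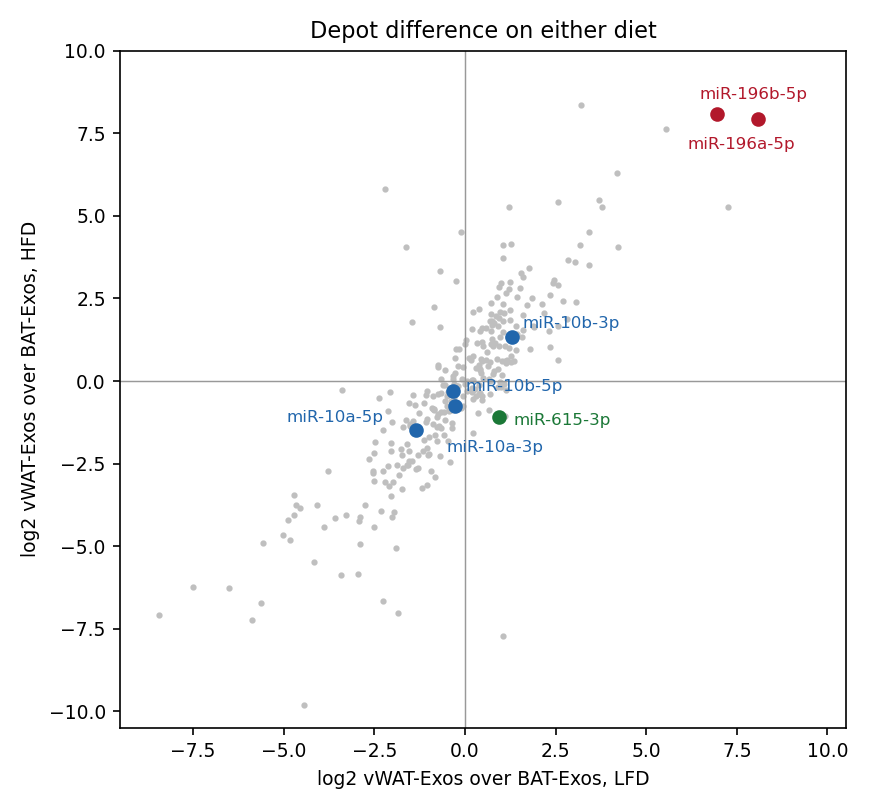
log2 ratio of vWAT-Exos over BAT-Exos (norm value + 1) on HFD (vertical axis) and on LFD (horizontal axis) for each mouse sequence that reached a norm value of 100 in some library (grey) and for 7 members (coloured). mmu-miR-196a-5p and mmu-miR-196b-5p lie at the upper right, at 7.92 and 8.09 on HFD and 8.09 and 6.94 on LFD, and mmu-miR-615-3p changes side with diet; mmu-miR-10b-5p and mmu-miR-10a-3p, below 0 here, lie above 0 when the libraries are rescaled to the same total.

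miR-10 was abundant in both depots, and its members differed in direction. mmu-miR-10a-5p, from the Hoxb cluster, had norm values of 57184 in HFD vWAT-Exos and 52375 in LFD vWAT-Exos, against 160652 in HFD BAT-Exos and 133868 in LFD BAT-Exos. It was 2.81-fold lower in vWAT-Exos than in BAT-Exos on HFD (2.77 to 2.85) and 2.56-fold lower on LFD (2.53 to 2.58). As a share of the mouse norm units it made up 2.04% (HFD) and 2.05% (LFD) in the vWAT-Exos libraries, against 2.85% and 2.46% in the BAT-Exos libraries, so the direction held with rescaled totals while the difference no longer reached 2-fold, at log2 differences of -0.45 and -0.23.

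mmu-miR-10b-5p, from the Hoxd cluster, is known in human tumours for its part in metastasis. It had norm values of 107379 in HFD vWAT-Exos and 87706 in LFD vWAT-Exos, against 131716 in HFD BAT-Exos and 109329 in LFD BAT-Exos. It was 1.23-fold lower in vWAT-Exos on HFD and 1.25-fold lower on LFD as deposited, and with rescaled totals the direction turned, to log2 differences of 0.74 and 0.81. As shares of the mouse norm units, these were 3.83% (HFD) and 3.44% (LFD) in the vWAT-Exos libraries, against 2.34% and 2.01% in the BAT-Exos libraries. With median-of-ratios scaling it stayed lower in vWAT-Exos, at log2 differences of -0.23 (HFD) and -0.32 (LFD). The median of all sequences compared also rose with rescaled totals, to 0.77 and 0.94. The direction of mmu-miR-10b-5p between vWAT-Exos and BAT-Exos thus depends on the scale.

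The proportion of the 2 miR-10 guides does not depend on the scale. mmu-miR-10a-5p was 0.533 times mmu-miR-10b-5p in HFD vWAT-Exos (0.524 to 0.541) and 0.597 times in LFD vWAT-Exos (0.590 to 0.605), against 1.22 times in HFD BAT-Exos (1.21 to 1.23) and 1.22 times in LFD BAT-Exos (1.22 to 1.23). The Hoxd miRNA was therefore the more abundant of the pair in vWAT-Exos and the Hoxb miRNA in BAT-Exos, on either diet. The base of U12A, which separates the mature forms, lies within both listed sequences.

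The 3p arms of both miR-10 hairpins showed the same order. mmu-miR-10a-3p had norm values of 1133 in HFD vWAT-Exos and 1430 in LFD vWAT-Exos, against 1928 in HFD BAT-Exos and 1732 in LFD BAT-Exos. mmu-miR-10b-3p had 2052 in HFD vWAT-Exos and 2003 in LFD vWAT-Exos, against 807 in HFD BAT-Exos and 809 in LFD BAT-Exos. Within a library, mmu-miR-10a-3p was 0.552 times mmu-miR-10b-3p in HFD vWAT-Exos (0.493 to 0.618) and 0.714 times in LFD vWAT-Exos (0.659 to 0.773), against 2.39 times in HFD BAT-Exos (2.23 to 2.56) and 2.14 times in LFD BAT-Exos (1.98 to 2.31).

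mmu-miR-10b-3p was the member of the miR-10 group that was higher in vWAT-Exos, by 2.54-fold on HFD (2.32 to 2.78) and 2.48-fold on LFD (2.28 to 2.69), and it stayed higher under each scaling tried. It ranked 79 of 307 on HFD and 43 of 303 on LFD, well inside the spread of all sequences. mmu-miR-10a-3p was 1.70-fold lower on HFD (1.54 to 1.88) and 1.21-fold lower on LFD (1.12 to 1.31) as deposited. It turned to log2 differences of 0.27 and 0.85 with rescaled totals and stayed lower with median-of-ratios scaling, at -0.70 and -0.28. Over the members, both vWAT-Exos libraries were above both BAT-Exos libraries for 4, of which mmu-miR-196b-3p stayed under a norm value of 100, and the reverse held for 3. Over the 320 sequences that reached 100, these shares were 35.9% and 43.8%.

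The 2 arms of a hairpin also differed in proportion between depots. mmu-miR-10b-5p exceeded mmu-miR-10b-3p by 52.3-fold in HFD vWAT-Exos (48.9 to 56.0) and 43.8-fold in LFD vWAT-Exos (41.6 to 46.1), against 163-fold in HFD BAT-Exos (154 to 173) and 135-fold in LFD BAT-Exos (127 to 144). For mmu-miR-10a the 5p arm exceeded the 3p arm by 50.5-fold in HFD vWAT-Exos (46.1 to 55.4) and 36.6-fold in LFD vWAT-Exos (34.4 to 39.0), against 83.3-fold (80.2 to 86.5) and 77.3-fold (74.0 to 80.7) in BAT-Exos. The 5p arm thus outweighed the 3p arm more strongly in BAT-Exos for both hairpins, and the gap between depots was wider for Mir10b.

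The ratio of the Mir10b arms was 3.12 times as high in BAT-Exos as in vWAT-Exos on HFD and 3.09 times as high on LFD. By the smaller of these values it ranked 5 among 81 hairpins. These had matching 5p and 3p names and both arms at a norm value of at least 10 in each library. The ratio of the Mir10a arms was 1.65 times as high on HFD and 2.11 times as high on LFD, and ranked 12. Of the 81 hairpins, 12.3% had a ratio at least 2-fold higher in BAT-Exos on both diets and 7.41% at least 2-fold lower, and Mir10b was among the first while Mir10a missed the threshold on HFD. The listed mmu-miR-10b-3p is the form with the extra first base, and whether other 3p forms differ between depots was not tested.

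**Figure D4:**
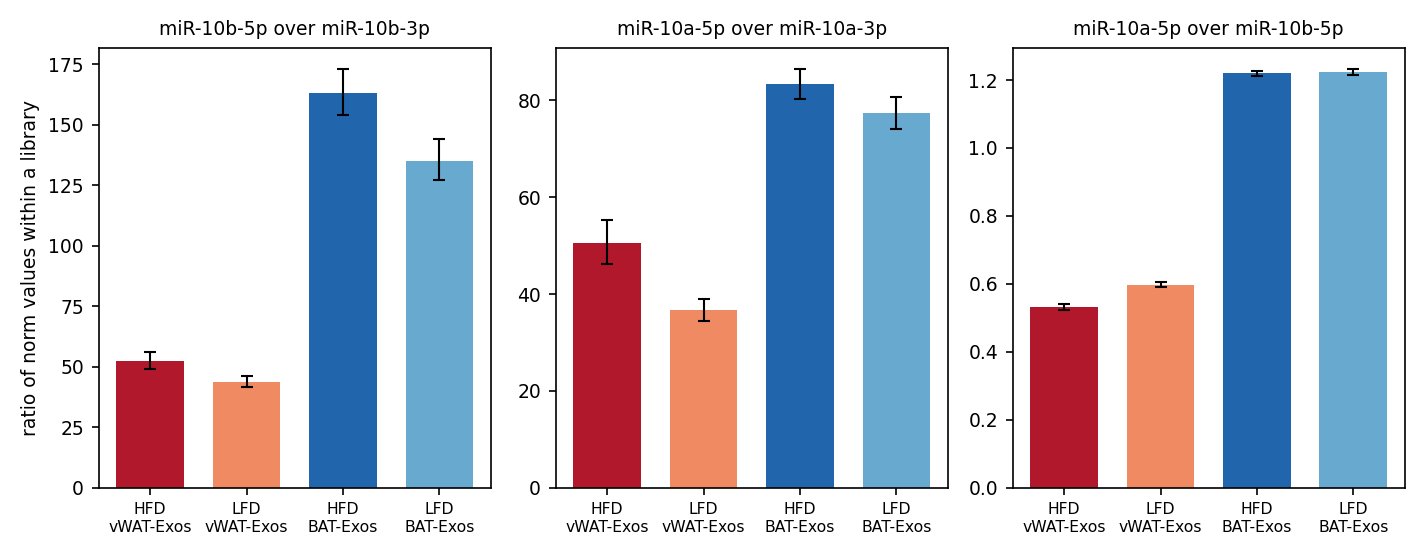
Ratios of norm values within each library, with bars for the ratio and whiskers for the 95% counting interval, from left to right HFD vWAT-Exos, LFD vWAT-Exos, HFD BAT-Exos and LFD BAT-Exos. The arm ratio of miR-10b reads 52.3 and 43.8 in vWAT-Exos, against 163 and 135 in the BAT-Exos bars, that of miR-10a 50.5 and 36.6 against 83.3 and 77.3, and mmu-miR-10a-5p over mmu-miR-10b-5p lies below 1 in vWAT-Exos and above 1 in BAT-Exos.

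miR-615 was the member whose depot difference changed side with diet. mmu-miR-615-3p, the more abundant arm of the Hoxc5 intronic hairpin, had norm values of 268 in HFD vWAT-Exos and 411 in LFD vWAT-Exos, against 567 in HFD BAT-Exos and 213 in LFD BAT-Exos. It was 2.12-fold lower in vWAT-Exos than in BAT-Exos on HFD (1.74 to 2.60) and 1.93-fold higher on LFD (1.63 to 2.29). The values of the 2 depots overlapped. With rescaled totals the log2 difference was -0.04 on HFD, close to no difference, and 2.07 on LFD.

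The other arm, mmu-miR-615-5p, stood at the lowest listed values. It had 11.8 in HFD vWAT-Exos and 3.53 in HFD BAT-Exos, about 5 reads in each, and was listed at 0 in both LFD libraries. At this depth no difference between depots or diets is readable for it.

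Between the diets, the 7 members that reached a norm value of 100 differed by under 2-fold in vWAT-Exos. Of these 7, 0 were at least 2-fold higher and 0 at least 2-fold lower on HFD than on LFD, where 5.65% and 4.59% of 283 sequences were called. Their median log2 difference was 0.04, as was that of all sequences compared. The count of 0 comes from single libraries and holds no statement on the spread between mice.

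The ratio of HFD to LFD vWAT-Exos was 1.03 for mmu-miR-196a-5p (0.932 to 1.14) and 1.03 for mmu-miR-196b-5p (0.944 to 1.12). It was 1.22 for mmu-miR-10b-5p (1.21 to 1.24), 1.09 for mmu-miR-10a-5p (1.07 to 1.11) and 1.02 for mmu-miR-10b-3p (0.941 to 1.11). With rescaled totals the log2 values of mmu-miR-196a-5p, mmu-miR-196b-5p, mmu-miR-10a-5p and mmu-miR-10b-3p turned to -0.09, -0.09, -0.01 and -0.10, so these 4 have no direction that holds. Of the 7 members that reached 100, the furthest from 1 were mmu-miR-615-3p, at 0.651 (0.520 to 0.811), and mmu-miR-10a-3p, at 0.792 (0.710 to 0.884), both lower on HFD, and mmu-miR-196b-3p, under 100, had a ratio of 0.663 (0.348 to 1.204).

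In BAT-Exos, mmu-miR-615-3p was the member that passed the rule between diets. It was 2.66-fold higher on HFD than on LFD (2.31 to 3.07), from about 803 reads on HFD and 258 on LFD. Of the 5 members that reached 100 in BAT-Exos, 1 was higher and 0 were lower, against 7.42% and 12.4% of 283 sequences. The median log2 difference of these 5 was 0.26, against 0.07 over all sequences.

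The miR-10 members differed little between the BAT-Exos libraries. The ratio of HFD to LFD was 1.20 for mmu-miR-10a-5p (1.19 to 1.21), 1.20 for mmu-miR-10b-5p (1.20 to 1.21), 1.11 for mmu-miR-10a-3p (1.05 to 1.18) and 0.998 for mmu-miR-10b-3p (0.916 to 1.09). For miR-196 the few reads in BAT-Exos gave wide intervals, with 1.20 for mmu-miR-196a-5p (0.327 to 4.78) and 0.427 for mmu-miR-196b-5p (0.169 to 1.002), and neither reached a norm value of 100 there.

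**Figure D5:**
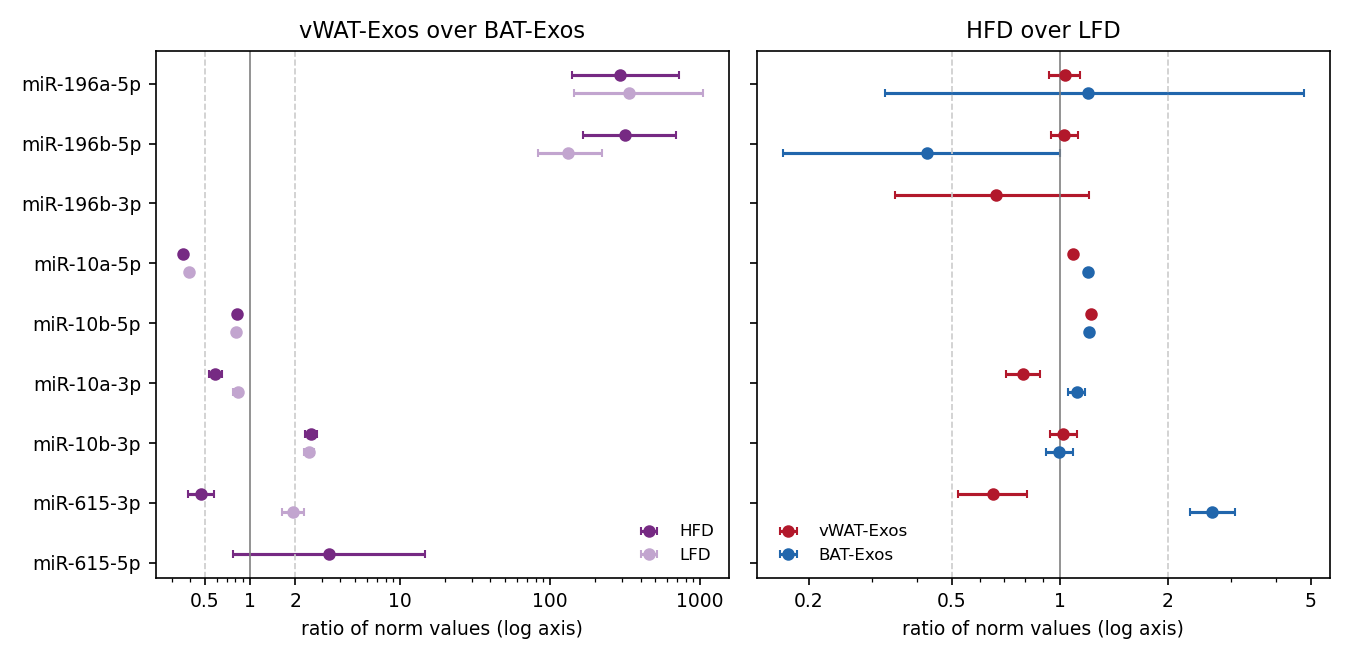
Ratio of norm values as deposited (log axis) for vWAT-Exos over BAT-Exos (left; HFD above LFD) and for HFD over LFD (right; vWAT-Exos above BAT-Exos), with 95% counting intervals, a solid line at 1 and dashed lines at 0.5 and 2. The miR-196 points lie beyond 100 on the left, and mmu-miR-615-3p lies on opposite sides of 1 in both panels; in the left panel mmu-miR-10b-5p and mmu-miR-10a-3p, and in the right panel 4 of the vWAT-Exos points next to 1, change side with rescaled totals, and no point is drawn against a library at 0.

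Set against each other, the diet responses of mmu-miR-615-3p in vWAT-Exos and in BAT-Exos differed by -2.03 on the log2 scale (-2.40 to -1.66). For mmu-miR-10a-3p the same difference was -0.49 (-0.67 to -0.32), for mmu-miR-10a-5p -0.14 and for mmu-miR-10b-5p 0.02. Each interval covers counting error, and the spread between mice could not be set against these differences.

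Markers of other cell types also differed between these libraries, and their part in the member values was not tested. Leukocyte miRNAs summed to 18985 norm units in HFD vWAT-Exos and 19598 in LFD vWAT-Exos, against 1840 in HFD BAT-Exos and 2517 in LFD BAT-Exos, and 2 of the 3 had both vWAT-Exos libraries above both BAT-Exos libraries, in the same direction as miR-196. The larger of their depot ratios, that of mmu-miR-142a-3p, was 79.1 on HFD and 18.5 on LFD, while mmu-miR-223-3p had ratios of 1.04 and 0.635. Striated muscle miRNAs summed to 1385 in HFD vWAT-Exos and 1560 in LFD vWAT-Exos, against 22933 in HFD BAT-Exos and 4193 in LFD BAT-Exos, so that they were highest in the library in which mmu-miR-615-3p was highest. Of these 6 muscle miRNAs, 5 had both BAT-Exos libraries above both vWAT-Exos libraries. The exception, mmu-miR-208b-3p, was higher in vWAT-Exos on LFD (16.3 against 7.43) and lower on HFD (0 against 208). Among the muscle miRNAs, mmu-miR-133a-3p, abundant in skeletal muscle and heart, had 13087 in HFD BAT-Exos and 1829 in LFD BAT-Exos. Depots that did not overlap were common over the 320 mouse sequences compared in this way. Both vWAT-Exos libraries were above both BAT-Exos libraries for 35.9% of these sequences, and the reverse held for 43.8%.

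miRNAs with related seeds were set beside the members. miR-196 was chosen for its depot contrast, so smaller depot ratios in its relatives describe that choice. Of the let-7 group, whose seed is close to that of miR-196, 8 of 9 had both vWAT-Exos libraries above both BAT-Exos libraries and 1, mmu-let-7b-5p, the reverse. Over the 320 mouse sequences compared in this way, these shares were 35.9% and 43.8%. The depot ratios of those 8 let-7 miRNAs ranged up to 7.13 on HFD and 2.88 on LFD, both for mmu-let-7e-5p. mmu-miR-99a-5p had 68355 in HFD vWAT-Exos and 76269 in LFD vWAT-Exos, against 86178 and 94971 in BAT-Exos, and mmu-miR-99b-5p had 10787 and 10039, against 13902 and 13159. The depot ratios of both, between 0.763 and 0.803, lay near those of mmu-miR-10b-5p, which were 0.815 on HFD and 0.802 on LFD.

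The miRNAs most like each guide over the 4 libraries were sought among 319 others by the distance between their centred log2 values, where a smaller distance means a closer pattern. For mmu-miR-196a-5p the nearest was mmu-miR-196b-5p, at 1.05, followed by mmu-mir-3964-p3 at 2.01, mmu-miR-196a-2-3p at 2.25, mmu-miR-142a-3p at 3.46 and mmu-miR-142a-5p at 3.61. Arms of miR-196 hairpins were thus the first and the third of these neighbours. For mmu-miR-10a-5p the nearest were mmu-miR-27b-3p at 0.14, mmu-miR-5124a at 0.20, mmu-let-7f-2-3p and mmu-miR-486b-5p at 0.29 and mmu-miR-25-3p at 0.30. For mmu-miR-10b-5p they were mmu-miR-185-5p at 0.08, mmu-miR-194-5p at 0.14, mmu-miR-345-5p at 0.16, mmu-miR-99b-5p at 0.20 and mmu-miR-24-2-5p at 0.21. These orders describe 4 points each, and with Pearson correlation in place of the distance, 0, 0 and 2 of the 5 names were kept.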

How the data were processed

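Small RNA of 4 exosome libraries was prepared with a TruSeq kit and sequenced on an Illumina HiSeq 2500, and reads were filtered and annotated with ACGT101-miR, per the labels. The deposited signal is a normalized count per sequence (norm value); how it was scaled is not given in the sources used. The labels give the human build GRCh38, so coordinates were taken from GENCODE and RefSeq on GRCm38.

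Of 1640 entries with 1482 sequences, the 697 with a mouse name were each taken once, and the 9 members filled 10 rows. Members, lists and rules were chosen with earlier results of these data known. The named miRNAs are the members, their other arms, seed relatives, marker lists and the 5 nearest to 3 guides. A read was worth 2.37, 1.36, 0.706 and 0.825 norm units (HFD vWAT-Exos, LFD vWAT-Exos, HFD BAT-Exos, LFD BAT-Exos), the commonest ratio of norm value to name number among predicted entries of 1 library, which rests on 3 of 3, 2 of 5, 100 of 112 and 127 of 146 entries. Within 0.01 read, 86.9%, 85.3%, 86.5% and 86.1% of values were whole. Ratios have exact conditional (Clopper-Pearson) 95% intervals from these reads, which cover counting error only. These were tested on simulated Poisson counts with known read sizes and with means above the miR-196 counts in BAT-Exos. Differences of diet responses between depots have normal 95% intervals on the log2 scale from the same reads, and these were not simulated. Log2 differences used a pseudocount of 1. The study states a norm value of 100 and a fold of 2 with a p-value that single libraries cannot give. Alternatives were other floors, folds, pseudocounts and scalings. The work was done in Python 3.11.15 with scipy 1.17.1, numpy 2.4.6, matplotlib 3.10.9 and pandas 2.3.3.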

Additional observations from a re-analysis of the deposited data

Results flagged for a closer look

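For 4 members the norm value was higher on HFD in one depot and lower on HFD in the other, as deposited. With rescaled totals the vWAT-Exos ratios of mmu-miR-196b-5p and mmu-miR-10b-3p turned to log2 values of -0.09 and -0.10, so that these members were then lower on HFD in both depots. The log2 ratio of HFD over LFD, taken in vWAT-Exos less the same ratio of BAT-Exos, came to -2.03 for mmu-miR-615-3p, -0.49 for mmu-miR-10a-3p, 0.038 for mmu-miR-10b-3p and 1.27 for mmu-miR-196b-5p. The counting interval of mmu-miR-10b-3p (-0.13 to 0.21) includes no difference, and that of mmu-miR-196b-5p (0.11 to 2.43) rests on 9 and 18 reads in BAT-Exos. With 1 library per condition these differences were not tested.

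An entry under the name of miR-196c-5p of another species holds the listed mmu-miR-196a-5p sequence and 1 further base, which differs from RefSeq miR-196a-5p by G22C, counted from 1 at the 5′ end. It was outside the comparisons and had norm values of 14.2 in HFD vWAT-Exos and 8.85 in LFD vWAT-Exos, about 6 and 6.5 reads, and was listed at 0 in both BAT-Exos libraries.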

How the results depend on the processing

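The number of members at least 2-fold apart between depots was 5 on HFD and 4 on LFD, and it became 3 and 2 with a floor of 100 in both libraries and 2 and 2 with a fold of 3. The members lost with the floor in both libraries were mmu-miR-196a-5p and mmu-miR-196b-5p, which lay under 100 in BAT-Exos. With rescaled totals the number was 3 on HFD. Between diets the count was 0 in vWAT-Exos and became 1 with a floor of 10, 1 with no floor and 1 with a fold of 1.5. In BAT-Exos the count was 1 and became 2 with a floor of 10, 3 with no floor and 0 with a fold of 3. Lower floors added mmu-miR-196b-5p in BAT-Exos, at 9 (HFD) and 18 (LFD) reads. They also added mmu-miR-615-5p in both depots, at 5 (HFD) and 0 (LFD) reads. The share of all sequences called was not counted under these alternatives, so nothing is read from the counts. Of 150 log2 differences under the alternatives, 124 stayed within their counting interval and 26 moved, 17 of them with rescaled totals, 6 with median-of-ratios scaling and 3 with a pseudocount of 10. The alternatives include summing all sequences of a member, which could move none because each member had a single mouse sequence. The count of 124 is therefore no measure of how stable the differences are. Of these 150, 0 called differences and 8 uncalled ones changed sign, the 8 with rescaled totals. No replicate could be left out. The labels give no replicate numbers, so no fit with a replicate block was made, and an additive fit of depot and diet was not run. Depth limits the miR-196 values in BAT-Exos and mmu-miR-615-5p, which rest on 5 to 18 reads, and the size of 1 read is least secure in vWAT-Exos.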

Other observations

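The other marker lists gave these sums, in norm units. Epididymis and testis miRNAs summed to 1960 in HFD vWAT-Exos and 2601 in LFD vWAT-Exos, against 533 in HFD BAT-Exos and 359 in LFD BAT-Exos, and most of each sum was mmu-miR-34c-5p. Endothelial miRNAs summed to 14051 and 17030 in these vWAT-Exos libraries, against 37025 and 23152 in the BAT-Exos libraries. Of the 3 erythroid names, 2 had values, since mmu-miR-486a-5p had no entry. These 2 summed to 4951 and 3315 in the vWAT-Exos libraries, against 13964 and 11547 in the BAT-Exos libraries. Most of each sum was mmu-miR-451a, while mmu-miR-144-3p had 1154 and 688 in the vWAT-Exos libraries, against 142 and 808 in the BAT-Exos libraries. mmu-miR-486b-5p, outside these sums, had 5135 and 3547 in the vWAT-Exos libraries, against 12760 and 10106 in the BAT-Exos libraries. Epithelial miRNAs summed to 7420 and 3785 in the vWAT-Exos libraries, against 5977 and 8547 in the BAT-Exos libraries. Neural miRNAs summed to 11.8 and 20.9 in the vWAT-Exos libraries, against 56.2 and 96.6 in the BAT-Exos libraries. Brown fat miRNAs summed to 116990 and 74247 in the vWAT-Exos libraries, against 2138699 and 2147107 in the BAT-Exos libraries.

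The passenger arm of the Hoxc copy of miR-196a stood apart from the guide between diets. mmu-miR-196a-2-3p was 0.251 times as high in HFD vWAT-Exos as in LFD vWAT-Exos, from about 16 and 111 reads, while mmu-miR-196a-5p was 1.03 times as high. This pair was picked after its values were seen, and with 1 library per diet the difference was not tested.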
